A study of Rattus norvegicus with 6 samples.

Results

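The 40 genes described here drive or restrain cell division: they load and run DNA replication, carry cells through mitosis, set entry into the cycle, or encode inhibitors of the cyclin-dependent kinases (Cdk). They were chosen by gene name. A row with the name was found for 38 of 40 among the 33713 genes of the count table. The rows comprised 12 replication genes, 15 mitotic and G2/M genes, 7 G1 and G1/S regulators and 4 Cdk inhibitors. Ccnb2 and E2f1 matched no row and were not analysed here. All 38 passed the filter on low counts, which left 14828 genes.

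Bulk RNA-seq was done on sciatic nerve of female Sprague-Dawley rats aged 8 weeks, on day 4. In the ES group (n = 3), electrical stimulation was given for 1 h right after the nerve ends had retracted to a gap of about 6 mm. The control group (n = 3) received no stimulation. In both groups the proximal and distal ends were each sutured 2 mm into a silicone tube of 10 mm. The labels name neither the stretch of nerve taken for RNA nor the animal behind each sample, and every p-value here therefore reflects sample-to-sample spread that may be technical.

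After nerve injury, Schwann cells lose contact with axons, return to a repair state and divide, and macrophages, fibroblasts and endothelial cells also multiply in the nerve. D-type cyclins with Cdk4 release E2F factors from the retinoblastoma protein, and E2F factors switch on replication genes. Mitotic genes are switched on later, largely through a promoter element called the cell cycle genes homology region (CHR). Inhibitors of the Cip/Kip and Ink4 families hold the kinases back.

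Short letter strings of E2F sites and of the CHR were looked for in the promoters of the rat genes. RefSeq promoters (build GRCr8, 250 bases before to 50 after the start site) were at hand for 29 of the 38 genes. There were no entries for Aurkb, Ccna2, Ccnd1, Ccnd2, Ccne2, Cdc6, Mcm4, Rrm2 and Tpx2. Both strands were searched for the E2F letters TTTCCCGC, TTTCGCGC, TTTGCCGC and TTTGGCGC, and for the CHR letters TTTGAA. Matches to the E2F letters can overlap each other. The E2F letters occurred in 7 of 9 replication promoters and in 1 of 12 mitotic promoters, that of Cdk1, against 2.82% of 19005 protein-coding promoters. The CHR letters occurred in 8 of 12 mitotic promoters and in 1 of 9 replication promoters, that of Mcm2, against 17.0% of all. The replication promoters without E2F letters were those of Pcna and Rrm1. The mitotic promoters without CHR letters were those of Aurka, Bub1, Ccnb1 and Kif11. A match is a description of letters, not a shown binding site. The 150 bases before the start site are given for 2 genes of each kind, since the letters differ in frequency between these classes, though neither set is found in 1 class alone. Mcm6 and Mcm7 encode subunits of the replicative helicase, and capitals mark the E2F letters, at −139 and −135 (overlapping) in Mcm6 and at −52 in Mcm7. Cdk1 encodes the mitotic kinase and Cdc20 an activator of the anaphase-promoting complex, and capitals mark the CHR letters, at −72 and −16 in Cdk1 and at −51 in Cdc20. The E2F letters of Cdk1, at −133, lie in the window and are left in lower case. The windows are chr13:42404353-42404502 (minus strand), chr12:22163179-22163328 (minus strand), chr20:19265143-19265292 (plus strand) and chr5:137255800-137255949 (minus strand).
Mcm6: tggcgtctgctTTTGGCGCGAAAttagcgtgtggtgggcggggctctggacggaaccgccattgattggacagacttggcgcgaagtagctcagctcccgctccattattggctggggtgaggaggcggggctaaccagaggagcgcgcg
Mcm7: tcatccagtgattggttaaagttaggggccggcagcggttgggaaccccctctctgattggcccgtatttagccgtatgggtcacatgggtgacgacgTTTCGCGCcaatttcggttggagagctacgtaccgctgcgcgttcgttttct
Cdk1: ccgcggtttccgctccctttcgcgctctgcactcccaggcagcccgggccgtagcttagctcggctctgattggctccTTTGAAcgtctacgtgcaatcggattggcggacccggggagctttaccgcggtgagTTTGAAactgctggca
Cdc20: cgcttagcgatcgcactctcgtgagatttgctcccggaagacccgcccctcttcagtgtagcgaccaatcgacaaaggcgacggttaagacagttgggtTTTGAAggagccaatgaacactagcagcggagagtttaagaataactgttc

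Library totals ran from 14962319 to 17119144 counts, and libraries of 1 group differed beyond sampling noise. Nerve markers were present: the 9 tested of 10 Schwann cell markers summed to 10879 to 11588 CPM (counts relative to the TMM-scaled library total) in ES libraries and to 8482 to 11010 CPM in control libraries. Of these 9, 8 had a log2 fold change (ES over control) above 0, with a median of 0.20. In 3 of them all ES libraries lay above all control libraries, against 7.54% of all tested genes. Markers of other cell types also differed between these libraries. The 8 adipocyte markers summed to 135 to 471 CPM in ES libraries and to 777 to 1162 CPM in control libraries, and the 9 tested macrophage markers to 998 to 1358 CPM in ES libraries and to 814 to 937 CPM in control libraries. In bulk tissue, fewer cells of a type and less RNA per cell cannot be told apart.

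Both groups held some cell cycle transcripts at high levels, while others lay nearer the middle of the tested genes. Levels between genes are given in FPKM, the authors' count per gene length and depth. Ccnd1, which encodes cyclin D1, stood at the 99.0th percentile of the tested genes by mean FPKM, Pcna, the sliding clamp of the replication fork, at the 97.3rd, Rrm2, the regulated subunit of ribonucleotide reductase, at the 97.0th, and Cdk1 at the 93.5th. The lowest member was Cdkn2a, at the 20.1st percentile, followed by the licensing factor gene Cdc6 at the 40.3rd. Next came Cdk2 at the 55.9th and Ccne1 at the 57.0th.

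**Figure D1:**
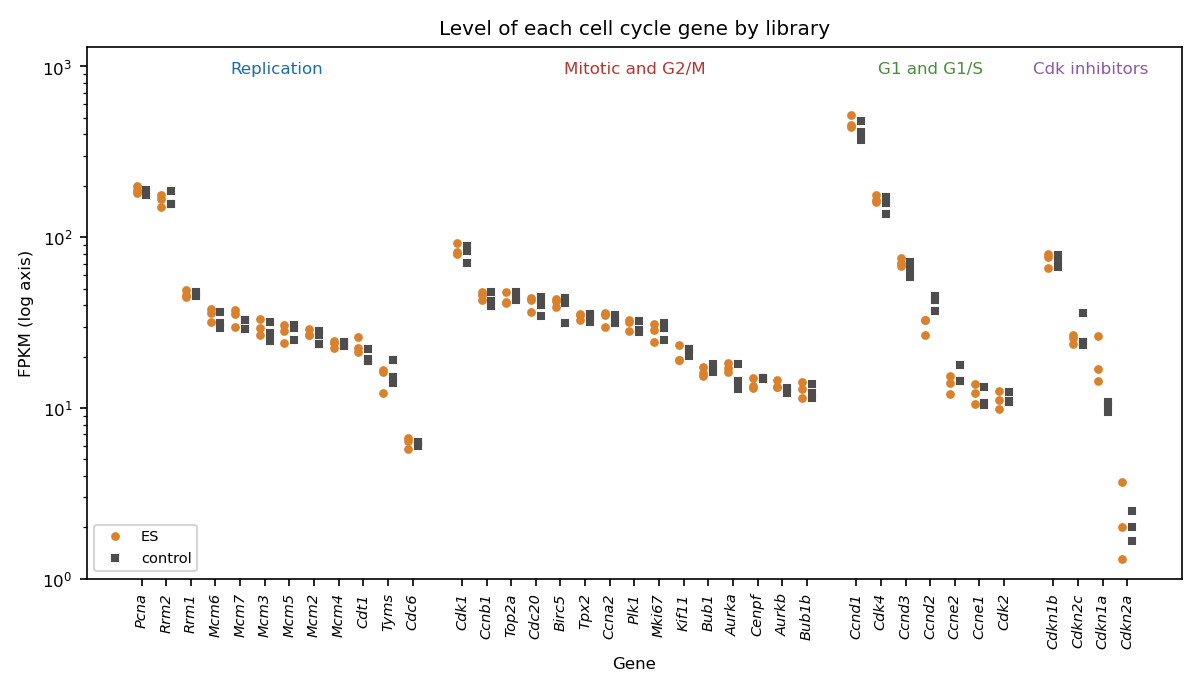
FPKM of 38 cell cycle genes (log axis) in 3 ES libraries (circles) and 3 control libraries (squares), grouped by role and ordered by mean level. The groups lie on top of each other for most genes, while all ES libraries lie above control for Cdkn1a (14.5 to 26.4 against 9.51 to 10.9 FPKM) and below control for Ccnd2 (26.7 to 32.8 against 36.8 to 45.1 FPKM).

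The comparison of ES with control asks whether the RNA of the division machinery on day 4 differed after stimulation. The quasi-likelihood test of edgeR, with p-values adjusted by Benjamini-Hochberg over all genes, called 0 of the 38 members, where it called 0.169% of all tested genes. Limma-voom also called 0 members, against 0.0135% of all tested genes. At an unadjusted p under 0.05 edgeR gave 2 members (9.95% of all tested genes), Cdkn1a higher in ES (4.01% of all tested genes were) and Ccnd2 lower in ES (5.94% were). DESeq2 called the same 2 genes, Cdkn1a higher and Ccnd2 lower. Of the genes to which DESeq2 gave an adjusted p, it called 2.07%, 0.627% higher and 1.45% lower. The median log2 fold change (ES over control) was 0.036 over the 38 members, 25 of them above 0, and 0.0025 over all tested genes, 50.7% of them above 0. In 35 of 38 members the 95% interval of the fold change lay within 1.5-fold in both directions, against 64.2% of all tested genes. The members were also more abundant, with a median of 80.6 CPM against 22.0 CPM over all tested genes, and interval width depends on abundance. The 3 exceptions were Cdkn1a, Ccnd2 and Cdkn2a.

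**Figure D2:**
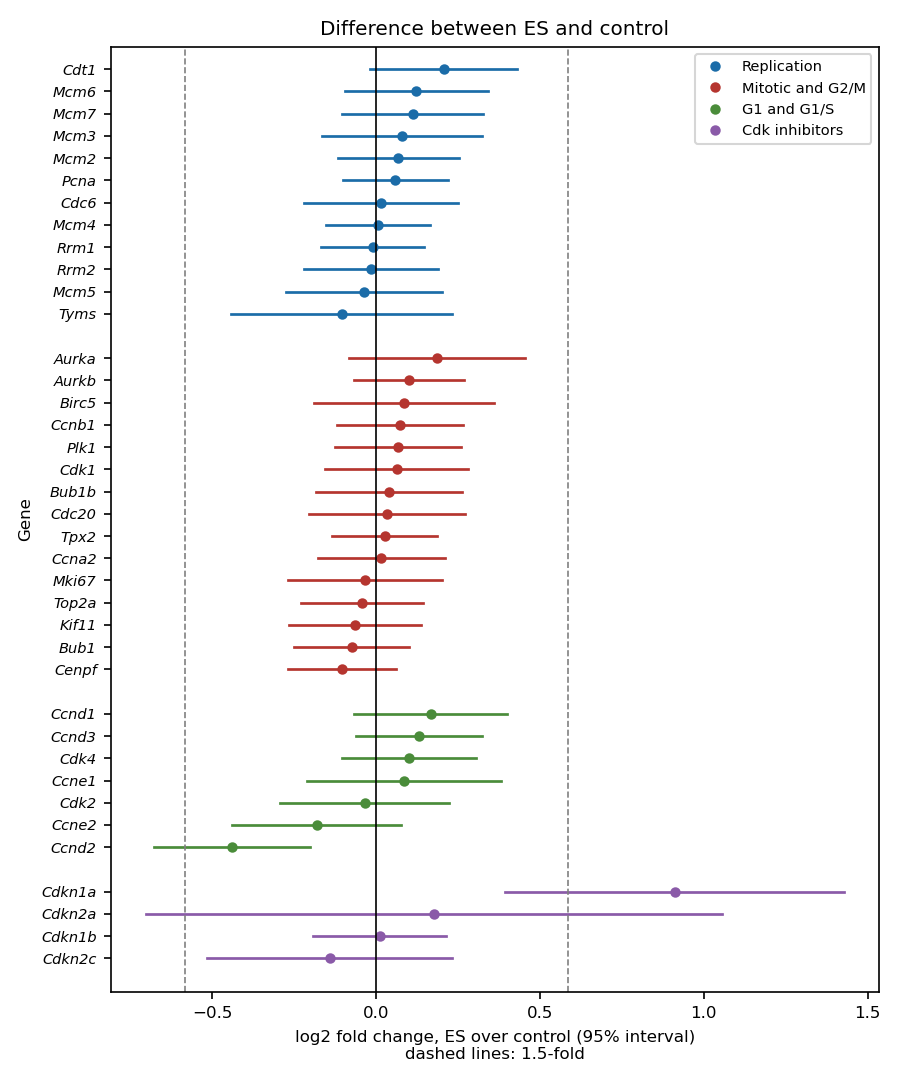
Log2 fold change of ES over control (points) with its 95% interval (lines) for 38 genes by role, dashed lines marking 1.5-fold. All 12 replication and all 15 mitotic intervals include 0 and lie between the dashed lines; those of Cdkn1a (above) and Ccnd2 (below) exclude 0.

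The replication genes had nearly the same level in both groups. None of the 12 was called, the lowest edgeR adjusted p was 0.533, and 0 had an unadjusted p under 0.05. Of all tested genes edgeR called 0.169%, and 9.95% had an unadjusted p under 0.05. Counts of 0 among 12 genes therefore say little. Their median log2 fold change was 0.04, with a range from −0.11 to 0.21, and no interval reached beyond 0.736-fold or 1.35-fold. Pcna was at 219.7, 210.5 and 231 CPM in ES 1, 2 and 3 and at 205, 220.3 and 210.4 CPM in control 1, 2 and 3. The groups overlapped, and the log2 fold change was 0.06 ± 0.07 (SE). Rrm2 was at 177, 196 and 207 CPM in ES libraries and at 184, 219 and 184 CPM in control libraries, a log2 fold change of −0.02 ± 0.09 (SE). The groups overlapped, with the lowest library in ES and the highest in control. Rrm1, the large reductase subunit, and Tyms, thymidylate synthase, had log2 fold changes of −0.01 and −0.11.

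The Mcm2 to Mcm7 genes encode the 6 subunits of 1 ring, the replicative helicase. In FPKM the highest of the 6 exceeded the lowest by 1.27-fold to 1.56-fold in every library. Their log2 fold changes ran from −0.04 (Mcm5) to 0.12 (Mcm6). Mcm6 was at 112, 93.4 and 105 CPM in ES libraries and at 85.7, 107 and 92.7 CPM in control libraries, and Mcm7 at 93.2, 73.9 and 88.3 CPM in ES libraries and at 72.8, 81.9 and 81.7 CPM in control libraries. Mcm2 was at 94.8, 87.6 and 86.8 CPM in ES libraries and at 77.3, 92.0 and 87.6 CPM in control libraries. For each of these genes ES 1 was the highest library and control 1 the lowest. Cdt1, which loads the ring onto DNA together with Cdc6, had the lowest p of the replication genes. It was at 58.5, 47.6 and 50.2 CPM in ES libraries and at 42.2, 49.6 and 43.7 CPM in control libraries (log2 fold change 0.21 ± 0.10, SE; edgeR adjusted p = 0.533), and the groups overlapped. Cdc6 had a log2 fold change of 0.01.

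In FPKM the highest Mcm gene exceeded the lowest by 1.49 ± 0.07-fold in ES libraries and by 1.39 ± 0.15-fold in control libraries (SD, n = 3 each). The groups overlapped. The next 2 ratios between replication genes differed between the groups by less than the SD within a group. Pcna exceeded the mean of the Mcm genes in FPKM by 6.42 ± 0.468-fold in ES libraries and by 6.43 ± 0.338-fold in control libraries (SD, n = 3 each). Rrm2 exceeded Rrm1 by 3.54 ± 0.245-fold in ES libraries and by 3.55 ± 0.293-fold in control libraries (SD, n = 3 each).

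The mitotic genes likewise showed no called difference. Of 15 genes 0 were called, 0 had an unadjusted p under 0.05, and the lowest edgeR adjusted p was 0.662. Over all tested genes the edgeR shares were 0.169% called and 9.95% with an unadjusted p under 0.05. Counts of 0 among 15 genes likewise say little. The median log2 fold change was 0.03, with a range from −0.10 to 0.18, and no interval reached beyond 0.829-fold or 1.37-fold. Mki67, whose protein coats mitotic chromosomes and is a standard proliferation marker, was at 282, 242 and 305 CPM in ES libraries and at 290.1, 310.4 and 249 CPM in control libraries. Its groups spanned nearly the same range (log2 fold change −0.03 ± 0.11, SE). Top2a, the topoisomerase that untangles replicated DNA, was at 233, 230.1 and 267 CPM in ES libraries and at 240.1, 269 and 244 CPM in control libraries (log2 fold change −0.04 ± 0.08, SE).

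Cdk1 was at 117, 112 and 129.8 CPM in ES libraries and at 99.5, 118 and 126 CPM in control libraries. Ccnb1, which encodes its partner cyclin B1, was at 76.9, 68.9 and 73.3 CPM in ES libraries and at 67.8, 76.7 and 63.9 CPM in control libraries. Both genes overlapped between the groups, with log2 fold changes of 0.06 ± 0.10 and 0.07 ± 0.09 (SE). Ccna2, cyclin A2, had a log2 fold change of 0.02.

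The kinases and spindle genes spread to both sides of 0. Aurka, a spindle pole kinase, had the largest positive value. It was at 40.5, 38.6 and 43.0 CPM in ES libraries and at 30.6, 42.7 and 34.3 CPM in control libraries (log2 fold change 0.18 ± 0.12, SE; edgeR adjusted p = 0.662). Aurkb, the kinase of the chromosomal passenger complex, was the only mitotic gene whose groups did not overlap. It was at 58.79, 58.76 and 64.2 CPM in ES libraries and at 54.4, 56.7 and 58.4 CPM in control libraries (log2 fold change 0.10 ± 0.08, SE; edgeR adjusted p = 0.714), so the nearest libraries of the groups differed by little. Among the 38 members 3 had groups that did not overlap, 2 with ES above and 1 with ES below. Of all tested genes 15.8% had such groups, 7.54% with ES above and 8.23% with ES below. Cenpf, a kinetochore protein, was at 133, 136 and 151 CPM in ES libraries and at 149, 151 and 152 CPM in control libraries (log2 fold change −0.10 ± 0.07, SE). Bub1, a checkpoint kinase, was at 69.3, 72.1 and 78.2 CPM in ES libraries and at 81.2, 72.7 and 77.2 CPM in control libraries (log2 fold change −0.07 ± 0.08, SE). The groups of both genes overlapped. Log2 fold changes of the others were 0.09 for Birc5 (survivin), 0.07 for the kinase gene Plk1, 0.04 for Bub1b, 0.03 for Cdc20 and for the spindle assembly factor gene Tpx2, and −0.06 for the motor gene Kif11.

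In the mean level of the replication and mitotic genes, libraries of 1 group varied more than the groups differed, and the 2 classes shared part of this variation. The mean log2(CPM + 0.1) of the replication genes was 6.42, 6.22 and 6.39 in ES libraries and 6.24, 6.38 and 6.30 in control libraries. That of the mitotic genes was 6.47, 6.37 and 6.56 in ES libraries and 6.36, 6.54 and 6.42 in control libraries. In both classes ES 2 was the lowest ES library and control 1 the lowest control library. Control 1 held the lowest value of 18 of the 38 members and ES 2 that of 11, while ES 3 and control 2 held the lowest value of 0. In ES 2, the 5 tested of 8 neutrophil markers summed to 177 CPM, against 18.6 to 24.4 CPM in the other libraries, and the 3 tested of 8 erythroid markers to 1167 CPM, against 56.1 to 139 CPM. The neutrophil markers were not uniform: 4 of the 5 had a log2 fold change above 0. The remaining 1 was at −3.87, with all ES libraries below all control libraries. Control 1 had the highest sum of adipocyte markers (1162 CPM). The part of these markers in the lower values was not tested. The mean of replication genes minus that of mitotic genes was −0.05, −0.14 and −0.17 in ES libraries and −0.13, −0.16 and −0.12 in control libraries. ES 1 therefore held slightly more replication relative to mitotic RNA than the other libraries, and the groups overlapped.

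**Figure D3:**
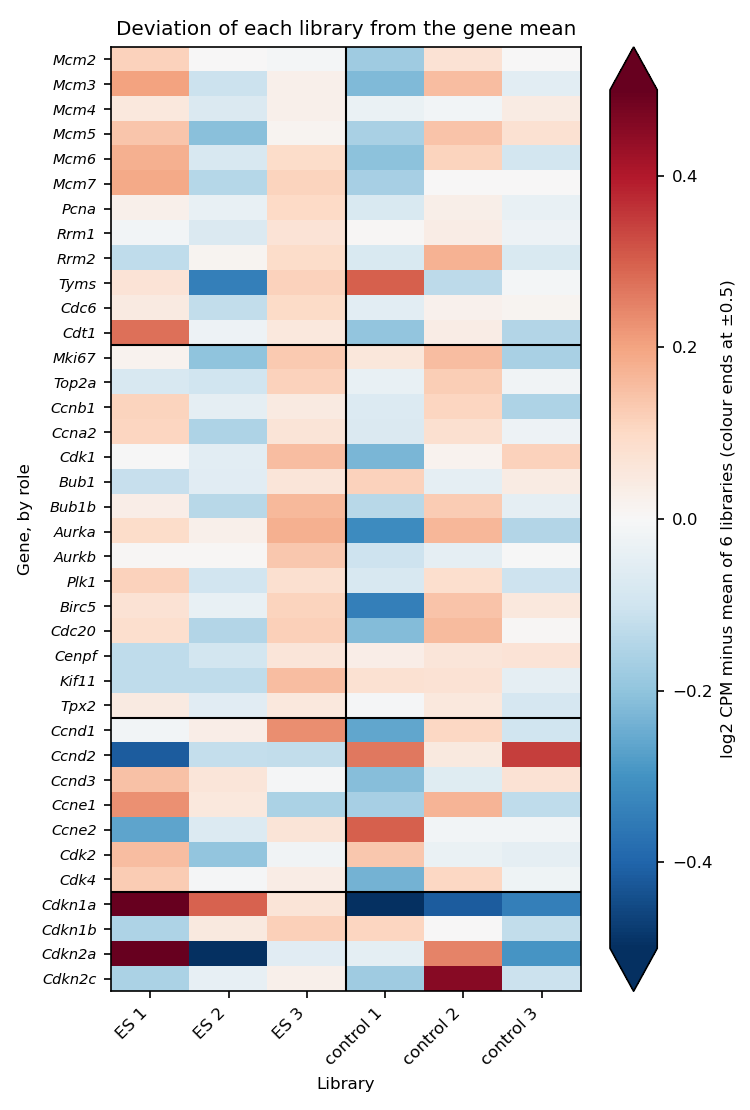
Deviation of each library's log2(CPM + 0.1) from the gene's mean over 6 libraries (colour; red higher, blue lower), with 38 genes by role in rows and ES libraries left of control libraries. Control 1 and ES 2 are blue over most replication and mitotic genes, whereas Cdkn1a is red in all ES libraries and blue in all control libraries.

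Among the genes that set entry into the cycle, the D-type cyclins had values on both sides of 0. Ccnd2, which encodes cyclin D2, was at 37.8, 46.4 and 46.3 CPM in ES libraries and at 60.6, 52.2 and 64.2 CPM in control libraries. All ES libraries lay below all control libraries. The log2 fold change was −0.44 ± 0.11 (SE; 95% interval −0.68 to −0.20), with an edgeR adjusted p of 0.165, which does not pass the threshold of 0.05. DESeq2 called it (adjusted p = 0.0361), as did edgeR when low counts were kept (adjusted p = 0.0497), within a range of 0.0361 to 0.490 over the alternatives. The gene (ENSRNOG00000057710) lies on the minus strand of chromosome 4, from 159674885 to 159697207 in the deposited tables, whose build is not settled: the submitters' processing notes name rn7, while the coordinates of the tables resemble an earlier build.

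Ccnd1 was at 1710.5, 1768 and 2027 CPM in ES libraries and at 1443, 1855 and 1611 CPM in control libraries (log2 fold change 0.17 ± 0.11, SE; edgeR adjusted p = 0.650). Ccnd3 was at 144, 136 and 130.1 CPM in ES libraries and at 113, 125 and 137 CPM in control libraries (log2 fold change 0.13 ± 0.09, SE). Both overlapped between the groups. Cyclin D1 RNA made up most of the D-type cyclin RNA: of the FPKM summed over the 3 genes, Ccnd1 took 82.2 ± 1.46% in ES libraries and 79.6 ± 2.38% in control libraries (SD, n = 3 each). Ccnd2 took 4.92%, 5.86% and 5.25% in ES libraries and 9.04%, 6.36% and 8.52% in control libraries, with no overlap. This share was looked at after the values of Ccnd2 had been seen, so it carries no test.

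Ccnd2 was lower in the same libraries in which vessel and connective tissue markers were lower. All 6 tested of 8 endothelial markers had a log2 fold change below 0, with sums of 463 to 505 CPM in ES libraries and 611 to 690 CPM in control libraries, and Cldn5 had 0 counts in every library. All 8 pericyte and smooth muscle markers were below 0, with sums of 613 to 626 CPM in ES libraries and 785 to 968 CPM in control libraries. Of 8 fibroblast markers 7 were below 0, with sums of 18547 to 20808 CPM in ES libraries and 21023 to 28146 CPM in control libraries. Other sets went both ways: 8 of 8 adipocyte markers were below 0. Above 0 were 9 of 9 tested macrophage and 8 of 9 tested Schwann cell markers. Of all tested genes 50.7% were above 0. The part of any of these markers in the Ccnd2 values was not tested.

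No regulator of G1 was called by edgeR in the main fit or by limma-voom, and DESeq2 called none besides Ccnd2. Over all genes given an adjusted p, the shares called were 0.169%, 0.0135% and 2.07%, in this order. Cdk4, the partner of the D-type cyclins, had a log2 fold change of 0.10 ± 0.09 and Cdk2, the partner of cyclins E and A, one of −0.04 ± 0.12 (SE). Ccne1 was at 27.0, 23.8 and 20.6 CPM in ES libraries and at 20.5, 25.9 and 21.1 CPM in control libraries. Ccne2 was at 36.9, 42.2 and 46.4 CPM in ES libraries and at 54.5, 43.8 and 43.9 CPM in control libraries. These cyclin E genes had log2 fold changes of 0.08 ± 0.13 and −0.18 ± 0.12 (SE), and the groups overlapped for both. The 95% interval of Ccne2, −0.44 to 0.07, included 0 and leaves room for a lower level in ES. That of Ccnd1, −0.07 to 0.40, also included 0 and leaves room for a higher level.

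The Cdk inhibitors held the largest difference of all members. Cdkn1a encodes p21, which blocks Cdk2 and binds Pcna, and which p53 and many growth and stress signals induce. It had 872, 553 and 430 counts in ES libraries and 302, 309 and 332 counts in control libraries, or 51.7, 33.1 and 28.2 CPM and 18.6, 20.3 and 21.3 CPM. All ES libraries lay above all control libraries, and the spread was far wider in ES (SD 12.4 CPM) than in control (SD 1.36 CPM). The log2 fold change was 0.91 ± 0.22 (SE; 95% interval 0.39 to 1.43), a 1.88-fold value. edgeR did not call it (adjusted p = 0.218), nor did limma-voom (adjusted p = 0.225). DESeq2 did (adjusted p = 0.000735), the lowest of a range up to 0.613 over the alternatives. Without ES 1, the highest library, the log2 fold change was 0.62 and the edgeR adjusted p 0.163. The gene (ENSRNOG00000000521) lies on the plus strand of chromosome 20, from 6351458 to 6358864 in the deposited tables.

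**Figure D4:**
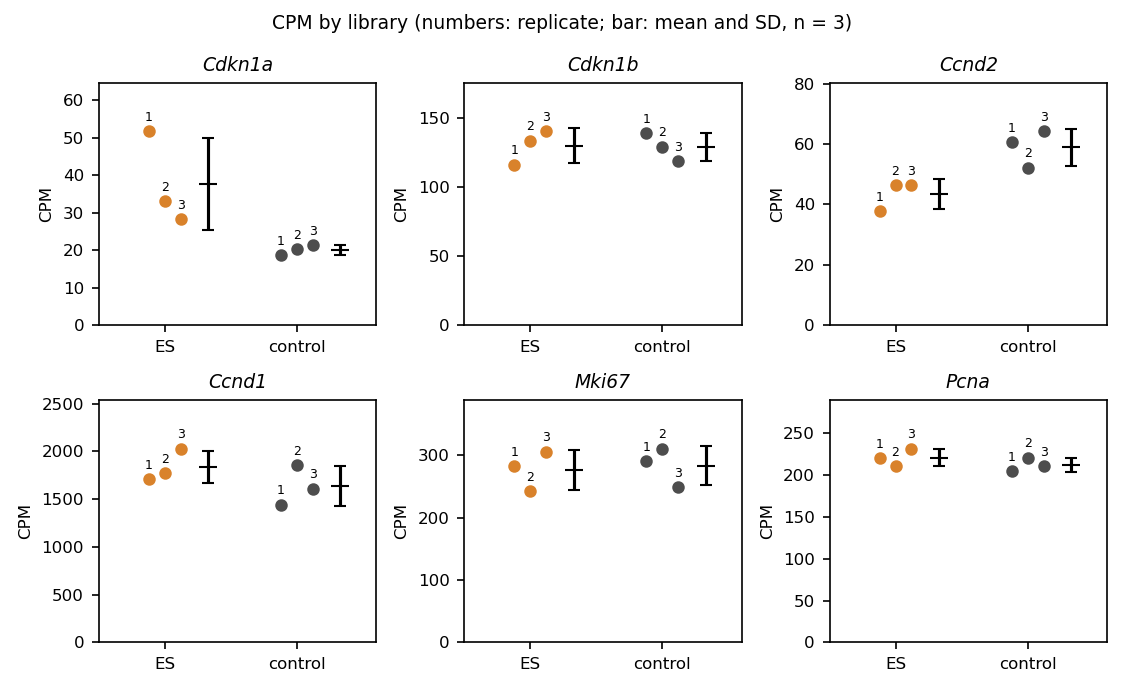
CPM of Cdkn1a, Cdkn1b, Ccnd2, Ccnd1, Mki67 and Pcna in each library (numbers give the replicate), ES left of control, with the mean and SD (n = 3) beside the points and axes from 0. Cdkn1a is higher in all ES libraries, Ccnd2 is lower in all ES libraries, and the other 4 genes overlap.

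No other inhibitor was called by edgeR or DESeq2, and no test compared the inhibitors with each other. Over all genes given an adjusted p, edgeR called 0.169% and DESeq2 2.07%, so these missing calls say little. Cdkn1b, which encodes p27, was at 116, 134 and 140.5 CPM in ES libraries and at 139, 129.5 and 119 CPM in control libraries (log2 fold change 0.01 ± 0.09, SE). In FPKM it stood above Cdkn1a in all libraries: Cdkn1a was at 0.400, 0.223 and 0.181 of the Cdkn1b level in ES libraries and at 0.120, 0.141 and 0.161 of it in control libraries. Cdkn2c, which encodes the Ink4 inhibitor p18, was at 34.0, 36.8 and 38.5 CPM in ES libraries and at 33.5, 52.0 and 35.2 CPM in control libraries, where control 2 stood apart (log2 fold change −0.14 ± 0.16, SE). Cdkn2a, whose locus encodes both an Ink4 inhibitor of Cdk4 and the p53 regulator Arf, had 57, 20 and 28 counts in ES libraries and 30, 35 and 24 counts in control libraries. Its log2 fold change was 0.18 ± 0.40 (SE), and the 95% interval, −0.70 to 1.06, was too wide to bound a difference to 1.5-fold, and gene counts do not separate its 2 products.

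Cdkn1a was highest in ES 1, the library with the lowest sum of adipocyte markers (135 CPM). ES 1 also had the lowest sums of fibroblast (18547 CPM), endothelial (463 CPM) and pericyte and smooth muscle markers (613 CPM). Its sum of Schwann cell markers was the highest (11588 CPM). ES 2 had a higher adipocyte sum (471 CPM) than ES 3 (247 CPM), and more Cdkn1a (33.1 against 28.2 CPM). The macrophage sum was highest in ES 2 (1358 CPM). The log2 fold change was below 0 in 8 of 8 adipocyte markers and above 0 in 9 of 9 tested macrophage markers, whose sums by group are given above. The part of these markers in the Cdkn1a values was not tested. Other genes of the p53 response were listed from textbook roles, with earlier results of these data known. Mdm2, the p53 ligase and target, was at 76.5, 78.8 and 76.4 CPM in ES libraries and at 69.3, 71.0 and 66.1 CPM in control libraries (log2 fold change 0.17 ± 0.07, SE; edgeR adjusted p = 0.463). For Ccng1, another p53 target, the log2 fold change was 0.16 ± 0.07 (SE; edgeR adjusted p = 0.523), and for Btg1, an antiproliferative gene, 0.19 ± 0.07 (SE; edgeR adjusted p = 0.384). These 3 had the lowest p-values among the 36 tested genes of a list of Rb, E2F, checkpoint and p53 genes. Of the 36, edgeR and DESeq2 each called 0, against 0.169% and 2.07% of all genes given an adjusted p. The median log2 fold change of the list was 0.02, with a range from −0.20 to 0.19 and 22 of 36 above 0. Genes of the p53 response were not summarised apart from the rest of the list. The groups did not overlap in 6 of 36, against 15.8% of all tested genes. ES lay above control in 4 (Mdm2, Ccng1, Btg1 and E2f6) and below it in 2 (E2f7 and Sesn1). Sesn1 was also listed for the p53 response. E2f6, E2f7 and Sesn1 are named after their values were seen, to complete the count. Btg1 and Mdm2 had an unadjusted p under 0.05, both higher in ES, against 4.01% of all tested genes.

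A wider set of the division machinery held no called gene either. Of 42 further replication genes (origin recognition, polymerases, clamp loader, single-strand binding and histone chaperones), edgeR and DESeq2 each called 0, and 0 had an unadjusted p under 0.05. Of all tested genes edgeR called 0.169%, and 9.95% had an unadjusted edgeR p under 0.05. DESeq2 called 2.07% of the genes to which it gave an adjusted p. With so low an edgeR share, 0 edgeR calls in lists of this size say little about these genes. Their median log2 fold change was −0.01, and the intervals of 38 of 42 lay within 1.5-fold, against 64.2% of all tested genes. The widest was that of Dbf4, the activator of the Cdc7 kinase, which reached up to 2.35-fold and was picked out after its values were seen. The lowest p-values belonged to the flap endonuclease gene Fen1 (log2 fold change 0.21 ± 0.11, SE), the origin recognition gene Orc4 (−0.28 ± 0.16) and the polymerase subunit gene Pole2 (0.22 ± 0.17). Pole2 was the 1 gene of the 42 whose groups did not overlap, with ES above control. Of 52 further mitotic genes edgeR and DESeq2 each called 0 and 0 had an unadjusted p under 0.05, with a median of 0.01, and the intervals of all 52 lay within 1.5-fold. The lowest p-values here belonged to the kinetochore motor gene Cenpe (0.18 ± 0.08, SE), the Cdk-binding subunit gene Cks2 (0.19 ± 0.10) and the cytokinesis gene Anln (−0.19 ± 0.09). Their edgeR adjusted p-values were 0.511 to 0.536. ES lay above control without overlap for Cenpe and Cks2 and below it for Anln, and the groups of the rest overlapped. The share without overlap, 3 of 52, compares with 15.8% of all tested genes.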

How the data were processed

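Sciatic nerve RNA of 3 ES and 3 control samples was extracted with TRIzol and made into libraries with NEBNext Ultra reagents, as the labels' protocols state. The authors deposited whole-number counts per gene, FPKM values of the same libraries and FPKM group means, which equal the means of the FPKM columns. Each deposited FPKM value is the count divided by gene length and by 1 depth constant per library. The build rn7 is credited to the submitters' processing notes. Aligner, counter and strand setting: not given in the sources used here, so antisense or overlapping transcripts may share counts. Unnamed loci (830) took 0.723% to 0.840% of counts and stayed in the fit. Counts of libraries of 1 group differed beyond sampling noise (chi-square per gene 10.6 to 18.3).

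Groups came from the titles. All genes were fitted with edgeR 4.0.16 (R 4.3.3): filterByExpr, TMM, robust quasi-likelihood test, two-sided, called at an adjusted p under 0.05. The SE is the absolute log2 fold change over the square root of F, and intervals use the fitted degrees of freedom. Alternatives were DESeq2 1.42.0, limma-voom and limma 3.58.1 on log2(FPKM + 1) or log2(FPKM + 0.1), non-robust dispersions, other size factors, no low count filter, a replicate block and leaving out each library. Scripts were tested on simulated data. Members and lists were chosen with earlier results of these data known. Values per library were given for a fixed panel, the 4 members of each role group with the lowest p and any called by edgeR or DESeq2. Of each other list of cell cycle genes the 3 with the lowest p were named, mostly by their fold changes alone.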

Additional observations from a re-analysis of the deposited data

How the results depend on the processing

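The number of members called was 0 in the main test and in all alternatives except DESeq2 (2, Cdkn1a and Ccnd2) and edgeR without a low count filter (1, Ccnd2), and further cell cycle genes stayed at 0 in all. The count over all genes, 25, was 301 with DESeq2, 2 with limma-voom, 3 and 2 with limma on log2(FPKM + 1) and log2(FPKM + 0.1), 2 with non-robust dispersions, 39 with library totals only and 132 without a filter. Leaving out 1 library gave 2 (without control 3) to 152 (without control 2) calls, with 5 without control 1 and 41 without ES 3. Under other tests and scalings the role group medians stayed within 0.01 of the main value, except for the inhibitors, at 0.0937 in the main fit, 0.0386 with limma-voom, 0.0413 and 0.0412 with limma on log2(FPKM + 1) and log2(FPKM + 0.1), and 0.0502 with the replicate block. Leaving out 1 library, they ran from 0.00 to 0.09 for replication genes, −0.02 to 0.11 for mitotic genes, −0.00999 (without ES 1) to 0.132 (without control 2) for G1 regulators and 0.00 to 0.23 for inhibitors; the cause was not tested. The median over all genes stayed within 0.01 of 0 under every scaling.

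Signs near 0 turned when 1 library was left out. The ranges over these fits were −0.118 to 0.0578 for Mki67, −0.115 to 0.00883 for Top2a, −0.0253 to 0.138 for Cdk1, −0.0682 to 0.0708 for Rrm2, −0.00999 to 0.199 for Ccne1, −0.0467 to 0.0907 for Cdkn1b, −0.317 to 0.470 for Cdkn2a and −0.255 to 0.0866 for Cdkn2c. Cdkn1a kept its direction in all alternatives (0.62 to 1.08), as did Ccnd2 (−0.52 to −0.34).

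No shared deviation of same-numbered libraries was seen: their deviations correlated at −0.121 to −0.037, and 0 libraries correlated best with their own number. These correlations cannot show whether same-numbered samples were handled together. With the replicate block, edgeR called 11 genes and 0 members. Cdkn2a had the fewest counts of the members, 20 to 57 per library, and the widest standard error.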
